A study of Mus musculus with 4 samples.

Results

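The wells described here are fibroblasts that carried Il6, the gene of the cytokine interleukin-6, set beside fibroblasts of the same plates in which no Il6 transcript was found. They come from 4 untreated APTKA orthotopic tumours, grown after transplantation into the colon of female C57BL6J mice, and sorted by the submitters as cancer-associated fibroblasts (CAFs), the fibroblasts of the tumour stroma. Each tumour filled 1 plate of 384 wells, and single cells were read by SORT-seq with CEL-Seq2 library chemistry, which counts transcripts at their 3' ends with molecular barcodes. The samples share the type of tumour, the strain, the sex and the absence of treatment. Nothing in the labels tells if the tumours grew in separate mice. The p-values from the test with the tumour as a block thus set the difference between the sets of wells against its variation over these tumours. That variation may be partly technical. The test draws the variance of each gene toward a trend over all genes, so a p-value does not rest on that gene's spread alone.

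A well was taken as a fibroblast when it held at least 3000 transcripts without spike-ins, at most 30% of them mitochondrial, at least 30 transcripts of Dcn plus Col1a1 per 10000, under 5 per 10000 of the smooth muscle gene Myh11 and under 5 per 10000 of the mural genes Rgs5 plus Notch3. This left 512 of 1536 wells, with 20, 178, 166 and 148 in tumours 1 to 4. Wells with at least 2 Il6 transcripts, selected on their Il6 count and called Il6-selected here, numbered 113, with 1, 60, 20 and 32 in tumours 1 to 4. Another 346 wells held no Il6, and 53 held 1 transcript and were put on neither side. Each Il6-selected well was paired with an Il6-zero well of its own plate, chosen to be near in total. In tumour 2 this left 44 of 60 pairs within 1.25 times of each other in total. Tumour 1, with 1 Il6-selected well, was under the minimum of 5 wells a side, so the tested comparison rests on 112 wells a side from 3 tumours. Il6 itself, the 5 other genes of the rule and the mitochondrial share chose the wells and are given as descriptions, with no test.

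Interleukin-6 is secreted by stromal and immune cells and signals through its receptor and the shared receptor chain gp130, encoded by Il6st, to the JAK kinases and the transcription factor STAT3. Other members of its family, such as leukaemia inhibitory factor (LIF) and interleukin-11, use the same chain. The Il6 promoter is a textbook target of NF-kB, AP-1 and C/EBP factors, and in tumours Il6 is one of the genes by which inflammatory CAFs are recognised, as opposed to contractile, matrix-making CAFs.

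Both sets also carried fibroblast markers that had not chosen the wells. The 7 fibroblast markers summed to between 516 and 650 per 10000 transcripts on either side of each tumour. Dcn and Col1a1 are among them, so this sum was partly set by the rule. Of the markers that the rule had not used, Col1a2 stood at 115 to 156 per 10000 and Col3a1 at 158 to 209. Lum stood at 7.79 to 19.4, Pdgfra at 3.73 to 9.02 and Pdgfrb at 0.706 to 2.12. Epcam of epithelium was at 0 in every sum, the leukocyte gene Ptprc at 0 in 5 of 6 sums and the endothelial gene Pecam1 at 0 in 3 of 6, and the summed epithelial and immune markers stayed at or under 0.120 per 10000. The summed endothelial markers were higher, at 0.163 to 0.359 per 10000. Red cell markers summed to 1.68 to 4.52 per 10000 and were found in 80% to 100% of the wells of a side. Pericyte markers that the rule had not used summed to less in the Il6-selected sums, at 2.38, 1.73 and 1.41 per 10000 in tumours 2, 3 and 4 against 2.87, 2.70 and 3.14. The members differed. Kcnj8 was higher on the Il6-selected side in tumours 2 and 3 and lower in tumour 4. Abcc9 was higher in tumour 2 and lower in tumours 3 and 4. Cspg4 was lower in each tumour and is itself among the genes called lower below. The part of the pericyte markers in the results below was not tested.

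The bases before the start of 4 genes are shown as examples: Il6, which chose the wells, the chemokine gene Cxcl1 and the NF-kB inhibitor gene Nfkbia, which were higher, and the collagenase gene Mmp13, which was lower. They are the 250 bases upstream of the annotated start in RefSeq, build GRCm38.p6, written 5′ to 3′ on the gene's strand, and capitals mark matches, on either strand, to the letters GGGNNNTTCC (NF-kB), TGANTCA (AP-1) or TTGCNNAA (C/EBP).
Il6 (chr5:30012864-30013113, + strand): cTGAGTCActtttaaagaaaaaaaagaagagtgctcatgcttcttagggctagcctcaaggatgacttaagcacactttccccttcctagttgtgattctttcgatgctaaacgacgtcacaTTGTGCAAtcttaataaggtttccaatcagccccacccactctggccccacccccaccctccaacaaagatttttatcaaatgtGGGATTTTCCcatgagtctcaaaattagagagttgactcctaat
Cxcl1 (chr5:90890995-90891244, + strand): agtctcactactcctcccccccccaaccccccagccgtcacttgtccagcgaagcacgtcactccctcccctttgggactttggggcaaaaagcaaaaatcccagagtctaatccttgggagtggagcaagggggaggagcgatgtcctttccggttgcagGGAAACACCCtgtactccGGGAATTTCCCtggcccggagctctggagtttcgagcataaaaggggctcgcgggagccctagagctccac
Nfkbia (chr12:55492648-55492897, - strand): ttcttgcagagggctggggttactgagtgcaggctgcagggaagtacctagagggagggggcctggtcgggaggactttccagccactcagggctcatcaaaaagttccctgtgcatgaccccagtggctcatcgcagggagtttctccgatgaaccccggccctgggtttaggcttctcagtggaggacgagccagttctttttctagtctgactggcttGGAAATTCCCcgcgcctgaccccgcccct
Mmp13 (chr9:7272264-7272513, + strand): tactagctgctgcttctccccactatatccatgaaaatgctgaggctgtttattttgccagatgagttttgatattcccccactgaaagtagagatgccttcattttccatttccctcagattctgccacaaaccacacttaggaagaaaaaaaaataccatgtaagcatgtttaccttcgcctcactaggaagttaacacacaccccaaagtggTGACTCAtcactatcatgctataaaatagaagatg
The Il6 window, which lies before a gene at chr5:30013114-30019981 on the plus strand (GRCm38, GENCODE M21), held a match of each kind, at 44 bases (NF-kB), 249 bases (AP-1) and 128 bases (C/EBP) before the start. Cxcl1 held 3 overlapping or neighbouring NF-kB matches, Nfkbia held 1 at 29 bases and Mmp13 held an AP-1 match at 35 bases before the start. Of the 32851 promoter windows in the table, 4.65% held the NF-kB letters, 6.75% the AP-1 letters and 9.56% the C/EBP letters. Among the windows of all genes tested below the shares were 5.13%, 4.48% and 7.70%. The genes higher in Il6-selected wells (87 windows of 70 matched genes) had 6.90%, 12.6% and 11.5%, and the genes lower (62 windows of 46 matched genes) had 4.84%, 8.06% and 11.3%. Windows of Ptx3 and Tnfaip6, which were also higher, were searched and are not printed. Ptx3 held a C/EBP match and Tnfaip6 an AP-1 match, and neither held the NF-kB letters. These are matches of letters and not sites of binding, and their part in the levels below was not tested.

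Il6 transcripts were spread unevenly over tumours and wells. At least 2 were found in 5.0% of the fibroblast wells of tumour 1 (exact Clopper-Pearson 95% interval 0.127 to 24.9%), 33.7% in tumour 2 (26.8 to 41.2%), 12.0% in tumour 3 (7.52 to 17.99%) and 21.6% in tumour 4 (15.3 to 29.1%), a mean of 18.1% ± 12.4 (SD, n = 4). The intervals of tumours 2 and 3 did not overlap. They cover counting error alone. With every well thinned to 3000 transcripts the shares were 0%, 15.3%, 4.85% and 6.08%. Over all fibroblast wells Il6 stood at 3.40, 0.881 and 1.84 transcripts per 10000 in tumours 2, 3 and 4, and in the Il6-selected wells at 6.97, 4.42 and 5.77.

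A few wells held much of the Il6. The median Il6-selected well carried 7.01, 7.51 and 6.004 transcripts in tumours 2, 3 and 4, and the highest well 245, 26.1 and 103. The 5 highest wells of each tumour held 45.7%, 49.6% and 57.3% of the Il6 of its fibroblast wells. Values are not whole numbers because the deposited counts are corrected for barcode collisions. At the edge of the rule, wells with 2 Il6 transcripts numbered 12, 1 and 4 in tumours 2, 3 and 4 and had a median of 1.01, 1.56 and 0.669 Il6 per 10000, while wells with 1 transcript numbered 30, 15 and 7 and had a median of 0.716, 1.31 and 0.743. The 2 classes thus lay side by side in level and differed mainly in the depth of the well in tumours 2 and 4, where the median totals were 19869 and 29952 at 2 transcripts and 13966 and 13452 at 1.

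**Figure D1:**
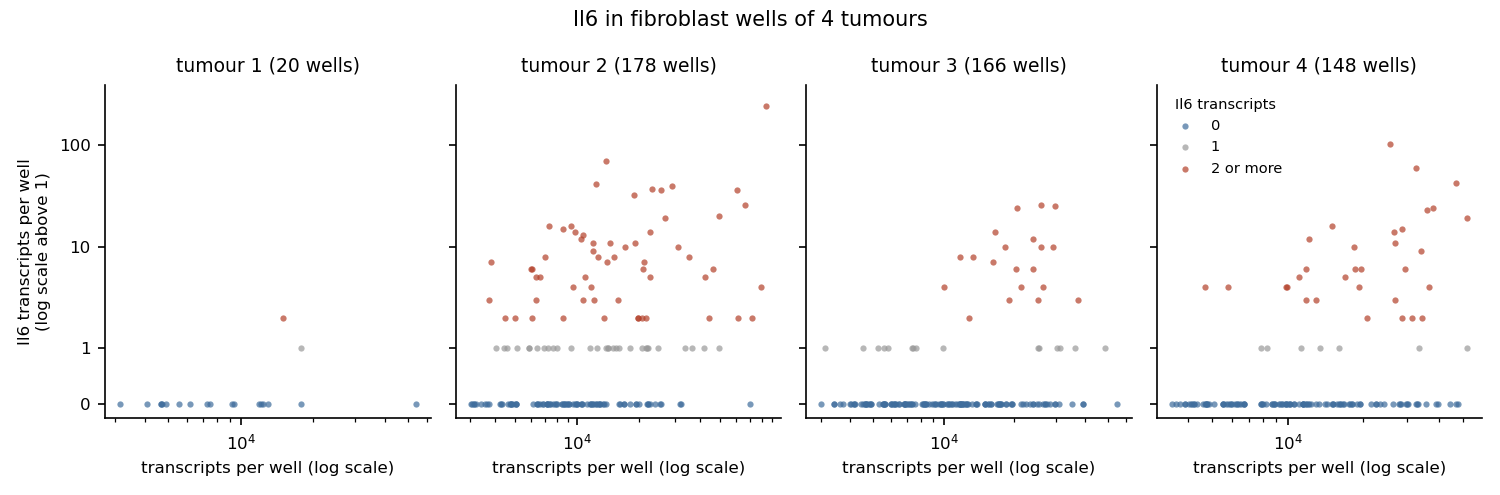
Il6 transcripts in each fibroblast well (vertical axis, log scale above 1) against the total transcripts of the well (horizontal axis, log scale), 1 panel per tumour, with wells of 0, 1 and 2 or more Il6 transcripts in blue, grey and red. Tumour 2 holds 60 of the 113 Il6-selected wells and the highest one (245 transcripts), tumour 1 holds 1, and above 32367 transcripts tumour 2 holds a single well without Il6.

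The wells with the most Il6 did not share one profile. The highest well of tumour 2, which was also the deepest fibroblast well of that plate at 83992 transcripts, carried 132 Lif, 259 Ccl2, 390 Cxcl1 and 45.2 Ptx3 transcripts beside its 245 Il6. The next well of tumour 2 had 69.6 Il6 and 104 Tnfaip6 transcripts but 1.0 Lif, 1.0 Ccl2 and no Cxcl1. In tumour 4 the highest well had 103 Il6, 125 Ptx3 and 160 Cxcl1 transcripts with 1.0 Ccl2, while the second had 60.4 Il6, 113 Lif, 153 Ccl2 and 4.0 Ptx3. In tumour 3 the highest well had 26.1 Il6 and 73.7 Cxcl1 transcripts and neither Lif nor Ptx3 nor Ccl2. Of 6 secreted factors whose genes were higher in the comparison below (Lif, Ptx3, Ccl2, Ccl7, Cxcl1 and Il33), the median Il6-selected well of tumours 2, 3 and 4 held transcripts of 5, 4 and 5, and the median Il6-zero well held 3, 2 and 3. At least 4 of the 6 were found in 81.7%, 60.0% and 78.1% of the Il6-selected wells against 35.0%, 15% and 25.0%. All 6 were found in 20 of 60, 1 of 20 and 11 of 32 Il6-selected wells, against 5 of 60, 0 of 20 and 0 of 32. Because the 6 were picked as genes higher in these same wells, larger counts on the Il6-selected side follow from the choice. These counts are a description and not a further result. In tumour 2 the Il6-selected wells were also deeper, with a median total of 14272 against 11684 transcripts.

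The 2 sides were alike in some measures of the wells and not in all. The median total was 14272, 20870 and 23114 transcripts in the Il6-selected wells of tumours 2, 3 and 4 and 11684, 20453 and 22786 in the Il6-zero wells. The Il6-selected sum was 0.997 and 1.003 times the Il6-zero sum in tumours 3 and 4 but 1.57 times in tumour 2, where 88 Il6-zero wells were there to match. The median mitochondrial share was 4.70%, 4.34% and 5.07% against 4.92%, 6.18% and 5.44%, and the ribosomal RNA precursor gene Rn45s took 23.5%, 12.8% and 8.98% against 23.1%, 7.86% and 10.3%. Immediate early and heat shock genes, which tissue dissociation can raise, summed to 217, 290 and 249 per 10000 in the median Il6-selected well and to 192, 249 and 221 in the median Il6-zero well. This sum was higher on the Il6-selected side in 3 of 3 tumours, and its part in the results was not tested. For this sum the two-sided exact sign-flip permutation test over tumours gave p = 0.25, the smallest p that 3 tumours allow.

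The transcripts of each side were summed per tumour, and 7119 genes were tested with edgeR's quasi-likelihood test with the tumour as a block. At a Benjamini-Hochberg adjusted p under 0.05, 96 genes were higher in the Il6-selected wells, 1.35% of the genes tested, and 72 were lower, 1.01%. Of these, 96 of 96 and 69 of 72 had the same direction in 3 of 3 tumours, and in 76 and 50 of them the 3 levels of the sides did not overlap. Over all genes tested the levels did not overlap in 3.20% with the Il6-selected side higher and in 9.54% with it lower. Of the called genes, 5 higher and 8 lower were never past the low-count filter on their lower side, so that they were tested through the side where they were high. Of those named here these are Ccl9, Il1r2, 9930013L23Rik, Foxf2 and Prdm1. The filter asked for 3 sums past its cutoff. Genes with 1 or 2 such sums on their lower side therefore also needed the side where they were high. Of those named here, Bmp5, Bmp7, Mmp9 and Thbs4 had 1, and Lif, Ptx3, Srgn, Ifit1, Wnt5a and Adamdec1 had 2. Counts of calls in the gene lists below include such genes and were partly set by the filter. The lists were chosen with earlier results of these data known, so their counts, medians and order are descriptions. The median log2 fold change over all genes was -0.004. With library totals in place of TMM scaling this median moved to -0.13, and 72 genes were higher and 108 lower. Without the tumour as a block the test called 3 genes higher (Has1, Il1r2 and Il33) and 5 lower (Bmp2, F2r, Foxf2, Prdm1 and Tmem119, of which the last 4 are named here for that reason, after their values were seen). Without tumour 3 the counts were 35 higher and 40 lower, and without tumour 4 they were 44 and 32. Of the 57 called genes named below by the rule for naming, 21 were still called without tumour 3, 38 without tumour 4 and 42 without tumour 2, and the 57, 57 and 55 that could be fitted kept their direction.

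Within the IL-6 family, Lif was the member that changed. Lif, whose product signals through gp130 and the LIF receptor, stood at 3.19, 0.841 and 3.99 per 10000 in the Il6-selected sums of tumours 2, 3 and 4 and at 0.547, 0.0698 and 0.240 in the Il6-zero sums. The sides did not overlap, and the log2 fold change was 3.35 ± 0.31 (SE; adjusted p = 0.000363). Lif transcripts were found in 58.3%, 30% and 50.0% of the Il6-selected wells and 20%, 15% and 21.9% of the Il6-zero wells, and the highest well held 31.5%, 52.8% and 37.5% of each Il6-selected sum. With the highest well of every sum left out, the levels were 2.33, 0.427 and 2.61 against 0.256, 0.0493 and 0.167, so the sides remained apart. Without tumour 2 the log2 fold change was 4.07. The Il6-selected wells of tumour 2 were deeper, and the part of depth in its shares of wells, here and below, was not tested.

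Il11, the family member tied to matrix-making fibroblasts, was lower in tumours 2 and 4 and higher in tumour 3, and did not pass the test. Its levels were 0.972, 0.514 and 0.372 per 10000 in the Il6-selected sums and 3.24, 0.233 and 4.67 in the Il6-zero sums (log2 fold change -1.77 ± 0.56, adjusted p = 0.159). It passed the threshold in 13 of 26 other settings, among them without tumour 3 (-2.47, adjusted p = 0.042), and stood at -0.84 without tumour 4 (adjusted p = 0.64). Some of the 26 settings repeat the sums of the main test, so that its result there was fixed. Of the 15 family genes listed, 13 were in the files and 8 had enough counts to be tested, with 1 called higher, none lower and a median log2 fold change of 0.49. The receptor genes that passed the filter were not called. Il6st, for gp130, had log2 fold change 0.69 (adjusted p = 0.172), at 1.79, 3.13 and 3.43 per 10000 against 1.70, 2.23 and 1.57. Il11ra1 had 1.04 (0.0846 as adjusted p), Osmr of oncostatin M 0.35 (0.593), Il6ra of interleukin-6 0.25 (0.880) and Lifr -0.42 (0.666). Osm, Il27 and Ebi3 had no transcript on either side.

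Of the 19 tested genes of STAT3 signalling, Pim1 was called. Pim1, a kinase gene that STAT3 induces, stood at 4.38, 4.37 and 4.55 per 10000 against 2.17, 1.89 and 1.73, with little spread within a side and no overlap (log2 fold change 1.33 ± 0.19, adjusted p = 0.00422). Without tumour 3 its adjusted p was 0.055, at a log2 fold change of 1.30. Socs3, the feedback inhibitor that STAT3 also induces, stood at 3.63, 5.35 and 4.19 against 2.77, 3.86 and 2.91 (0.59 ± 0.18, adjusted p = 0.136), and Stat3 itself at 2.87, 2.83 and 3.39 against 2.51, 2.47 and 2.45 (0.41 ± 0.18, adjusted p = 0.376). Both were higher in each tumour and neither passed the test. The C/EBP genes Cebpb (0.74, adjusted p = 0.0947) and Cebpd (0.80, 0.103 as adjusted p) and the AP-1 gene Junb (0.66, 0.0731 as adjusted p) were placed alike. In all, 16 of the 19 had a positive log2 fold change, with a median of 0.46, while the kinase gene Jak1 had 0.43 and Jak2 -0.11.

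**Figure D2:**
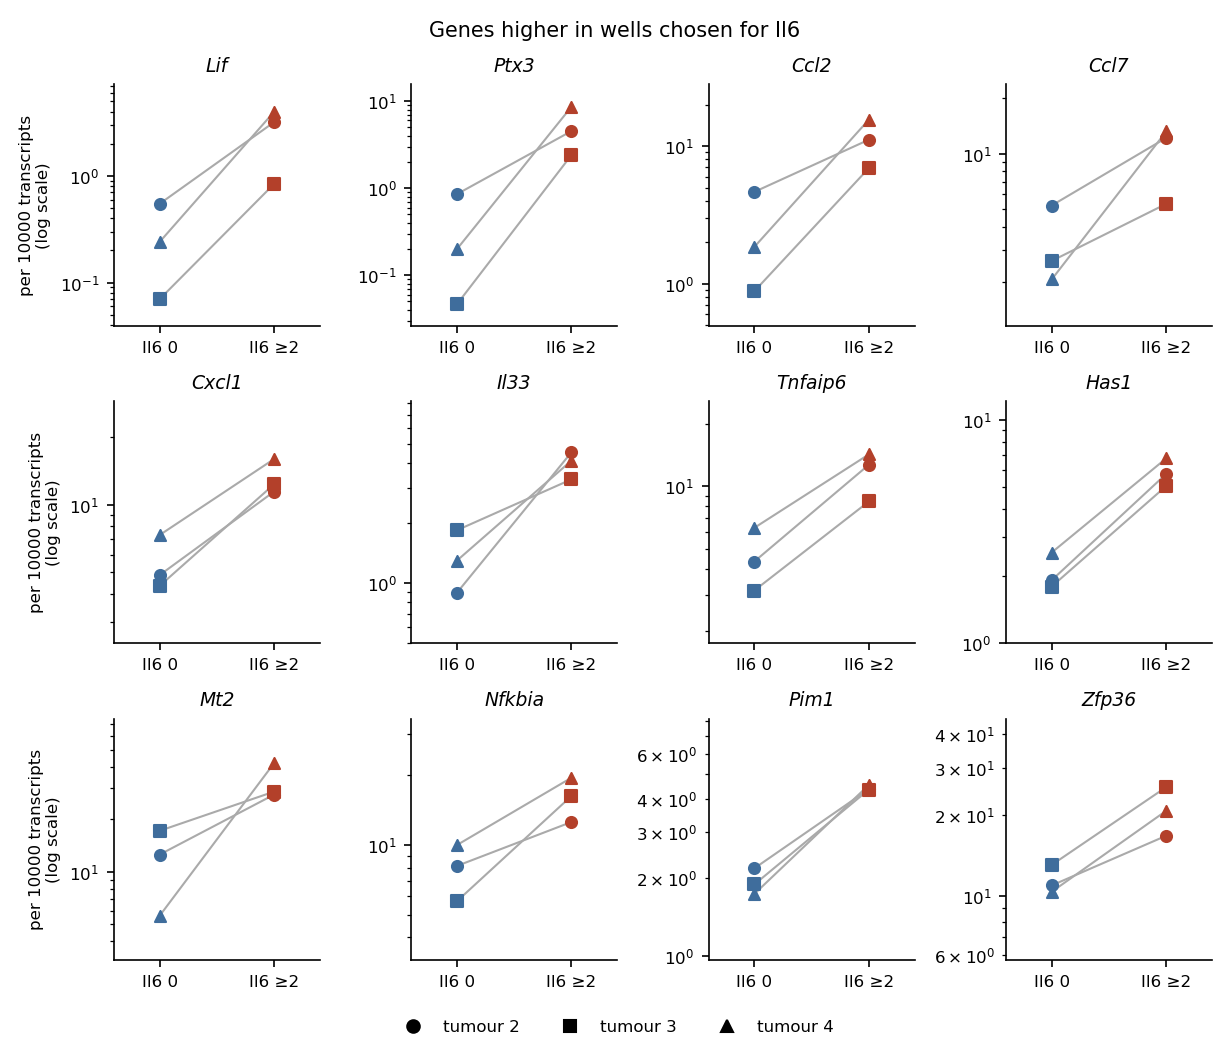
Levels of 12 genes higher in Il6-selected wells (transcripts per 10000, log scale), with each tumour's Il6-zero sum in blue joined to its Il6-selected sum in red. Every line of the 12 panels rises, and in each panel the 3 red points lie above the 3 blue ones.

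The NF-kB list held more calls than the list of STAT3 signalling, and both lists were chosen with earlier results of these data known. Of 20 tested genes of the NF-kB list 6 were called higher and none lower, and the list's median log2 fold change was 0.79. Nfkbia, which encodes the inhibitor that holds NF-kB in the cytoplasm and whose promoter is printed above, stood at 12.6, 16.3 and 19.5 per 10000 against 8.13, 5.72 and 10 (1.15 ± 0.21, adjusted p = 0.0138). Nfkbiz, for the nuclear cofactor that NF-kB needs to switch on Il6, stood at 3.64, 5.44 and 6.33 against 1.94, 3.07 and 2.35 (1.19 ± 0.19, adjusted p = 0.00965). Neither gene's sides overlapped. The others were Rela, for an NF-kB subunit (1.04), Csrnp1 (1.04), Birc3, for an inhibitor of cell death (1.04), and Tnfaip2 (1.05), with adjusted p between 0.0136 and 0.0476. Without tumour 3 all 6 missed the threshold, with adjusted p = 0.12 for Nfkbia, 0.065 for Nfkbiz and 0.11 for both Rela and Csrnp1, and Birc3 and Tnfaip2 stood at 0.10 and 0.28; Birc3 also lost its order in 1 of 3 tumours once the highest wells were left out.

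In the list of IL-1 and Toll-like receptor signalling 3 of 13 genes were higher and none lower, with a median of 0.37. Il33, an alarmin of the IL-1 family, stood at 4.54, 3.32 and 4.12 per 10000 against 0.891, 1.84 and 1.29, with no overlap (1.76 ± 0.25, adjusted p = 0.00464). It was found in 66.7%, 70.0% and 75.0% of the Il6-selected wells and 33.3%, 55.0% and 37.5% of the others. The decoy receptor gene Il1r2 stood at 0.463, 1.66 and 1.12 against 0.107, 0.116 and 0.0667 (3.41 ± 0.35, adjusted p = 0.00108), but it was found in 16.7%, 35.0% and 31.2% of the Il6-selected wells and 1 well held 46.0%, 53.6% and 47.7% of each sum. Without those highest wells the levels were 0.261, 0.845 and 0.608 against 0.0841, 0.0731 and 0.0556. Irak3, which encodes a brake on the receptors' kinases, had 1.36 ± 0.26 (adjusted p = 0.0171, and 0.10 without tumour 3 or 0.099 without tumour 2).

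Of 11 regulators of Il6 mRNA stability 2 were called higher and none lower, with a list median of 0.11. Zfp36, for tristetraprolin, which binds AU-rich tails, stood at 16.7, 25.4 and 20.7 per 10000 against 10.9, 13.0 and 10.3, with no overlap (0.99 ± 0.17, adjusted p = 0.0138). Zc3h12a, for the RNase Regnase-1 that cuts Il6 mRNA, stood at 0.607, 0.841 and 1.05 against 0.368, 0.140 and 0.320 (1.59 ± 0.30, adjusted p = 0.0187). Without tumour 3 the adjusted p was 0.12 for both, and Zc3h12a also missed it without tumour 4 (0.16).

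Chemokine genes formed the list with the highest median, 1.15. Of its 11 tested chemoattractants of neutrophils and monocytes 4 were called higher and none lower. Cxcl1, which draws neutrophils, stood at 11.4, 12.3 and 15.9 per 10000 against 4.86, 4.35 and 7.32 (1.41 ± 0.18, adjusted p = 0.00306), and the sides were apart in every tumour. Ccl2, which draws monocytes, stood at 11.1, 6.91 and 15.5 against 4.65, 0.884 and 1.85 (2.51 ± 0.33, adjusted p = 0.00306), and its neighbour on chromosome 11, Ccl7, at 12.2, 5.32 and 13.2 against 5.22, 2.61 and 2.07 (1.76 ± 0.28, adjusted p = 0.00899). The sides of Ccl2 and of Ccl7 did not overlap. Without tumour 2 the log2 fold change of Ccl2 was 3.17, and without tumour 3 it was 2.25 with an adjusted p of 0.055. Ccl2, Ccl7 and Ccl9 are related genes, and exchange of reads between them was not tested.

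Ccl9 rested on few wells. It was called (4.14 ± 0.69, adjusted p = 0.0110) on 83 transcripts against 4, but in tumour 3 a single well held its 51.3 transcripts, and without tumour 3 the log2 fold change was 2.65 (adjusted p = 0.13). Among chemoattractants of lymphocytes, Cxcl10, an interferon-induced chemokine, was 1 of 5 tested genes called. It stood at 2.81, 2.73 and 1.42 per 10000 against 0.642, 0.349 and 1.12 (1.81 ± 0.38, adjusted p = 0.0283), and the highest well held 80.5%, 60.5% and 32.8% of the Il6-selected sums. Without the highest wells the levels were 0.582, 1.15 and 0.974 against 0.420, 0.148 and 0.138. Without tumour 3 the call was lost (1.35, adjusted p = 0.22), and without tumour 2 as well (1.56, 0.055 as adjusted p), while without tumour 4 the log2 fold change was 2.58.

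Ptx3, for the soluble pattern recognition protein pentraxin 3, had a large difference among the more abundant genes. It stood at 4.53, 2.40 and 8.63 per 10000 against 0.856, 0.0465 and 0.200, with no overlap (4.05 ± 0.50, adjusted p = 0.00264). It was found in 73.3%, 35.0% and 78.1% of the Il6-selected wells and 33.3%, 5.0% and 21.9% of the Il6-zero wells. Without tumour 2 the log2 fold change was 5.60 and without tumour 4 it was 3.22. A pair of partners of pentraxin 3 in the hyaluronan matrix were higher too: Tnfaip6, whose product links hyaluronan chains, at 12.7, 8.45 and 14.3 against 4.34, 3.14 and 6.31 (1.51 ± 0.18, adjusted p = 0.00207), and the hyaluronan synthase gene Has1 at 5.74, 5.07 and 6.74 against 1.91, 1.79 and 2.55 (1.62 ± 0.18, adjusted p = 0.00154). The sides of both genes were apart in each tumour and across tumours. The other 8 tested genes of the prostaglandin and hyaluronan list were not called, and the list's median was 0.21.

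Acute phase and metallothionein genes had a median of 1.13, with 3 of 13 higher and none lower. The metallothionein genes Mt2 and Mt1, which bind zinc and copper and are induced by IL-6, by glucocorticoids and by metals, stood at 27.7, 28.8 and 41.9 per 10000 against 12.6, 17.2 and 5.60 (Mt2, 1.70 ± 0.33, adjusted p = 0.0203) and at 20.9, 24.9 and 26.0 against 10.5, 17.0 and 5.48 (Mt1, 1.38 ± 0.27, adjusted p = 0.0208). Neither overlapped between sides. Mt1 and Mt2 are similar genes, and exchange of reads between them was not tested. Without tumour 3 both had an adjusted p of 0.055, with log2 fold changes of 2.12 and 1.72, and without tumour 4 Mt2 had 1.08. Steap4, for a metalloreductase, had 1.13 ± 0.23 (adjusted p = 0.0243, and 0.21 without tumour 3). The lipopolysaccharide-binding protein gene Lbp, outside the rule for named genes and added after its values were seen, stood at 4.99, 3.13 and 7.35 against 1.94, 2.05 and 1.11 (1.70 ± 0.32, adjusted p = 0.0171; 1.14 and 0.051 without tumour 4). Saa3, the acute phase apolipoprotein gene, also added afterwards, was not called (1.87 ± 0.77, adjusted p = 0.331), and its Il6-zero levels ran from 0.293 to 8.94.

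The complement and interferon lists held 1 call each. In the complement list C3, the central component, was called, 1 of 11, at 30.9, 33.8 and 40.4 per 10000 against 15.2, 31.3 and 18.6, where the Il6-zero sum of tumour 3 overlapped (0.88 ± 0.20, adjusted p = 0.0474; 0.23 without tumour 2 and 0.20 without tumour 4). Of 23 interferon and MHC class I genes 1 was called, Ifit1 (1.27 ± 0.28, adjusted p = 0.0393, and between 0.067 and 0.43 with any of tumours 2, 3 and 4 left out), with a list median of 0.19. Srgn, for the granule proteoglycan serglycin, stood at 0.493, 1.59 and 2.02 against 0.214, 0.256 and 0.120 (2.74 ± 0.41, adjusted p = 0.00527, and 0.074 without tumour 3). Its log2 fold change was 3.52 without tumour 2 and 2.004 without tumour 4. Alpl, for tissue-nonspecific alkaline phosphatase (2.08 ± 0.39, adjusted p = 0.0171, and 0.055 without tumour 3), and Serpinb1a, for an inhibitor of neutrophil proteases (1.79 ± 0.25, adjusted p = 0.00433), completed the 10 largest among the genes at 1 or more per 10000.

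Among immediate early genes 3 of 27 were called: Errfi1, a feedback inhibitor of the EGF receptor (1.32, adjusted p = 0.00422), Ier5 (0.99, 0.0349 as adjusted p) and Atf3 (0.91, 0.0376 as adjusted p), with a median of 0.35 over the list. Without tumour 3 their adjusted p-values were 0.055, 0.22 and 0.30. Errfi1 was also the single call among 10 genes of the glucocorticoid response. Heat shock genes (0 of 15 called, median 0.05), the unfolded protein response (0 of 14, 0.11), glycolysis and hypoxia (0 of 20, -0.16) and the 6 cell cycle genes with enough counts (0 called, -0.33) gave no call. The abundant chaperone gene Hspa8 stood at 8.35, 9.92 and 11.8 against 8.82, 10.9 and 12.0, and the lactate dehydrogenase gene Ldha at 3.84, 4.997 and 5.33 against 4.04, 5.56 and 4.91. With Il6-zero wells matched on the immediate early and heat shock sum as well as on the total, 214 genes were higher and 169 lower. The immediate early and heat shock genes, Errfi1, Ier5 and Atf3 among them, were left out of this test. Of the 96 and 72 genes, 93 and 70 were tested again, and 93 and 66 of these were called.

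**Figure D3:**
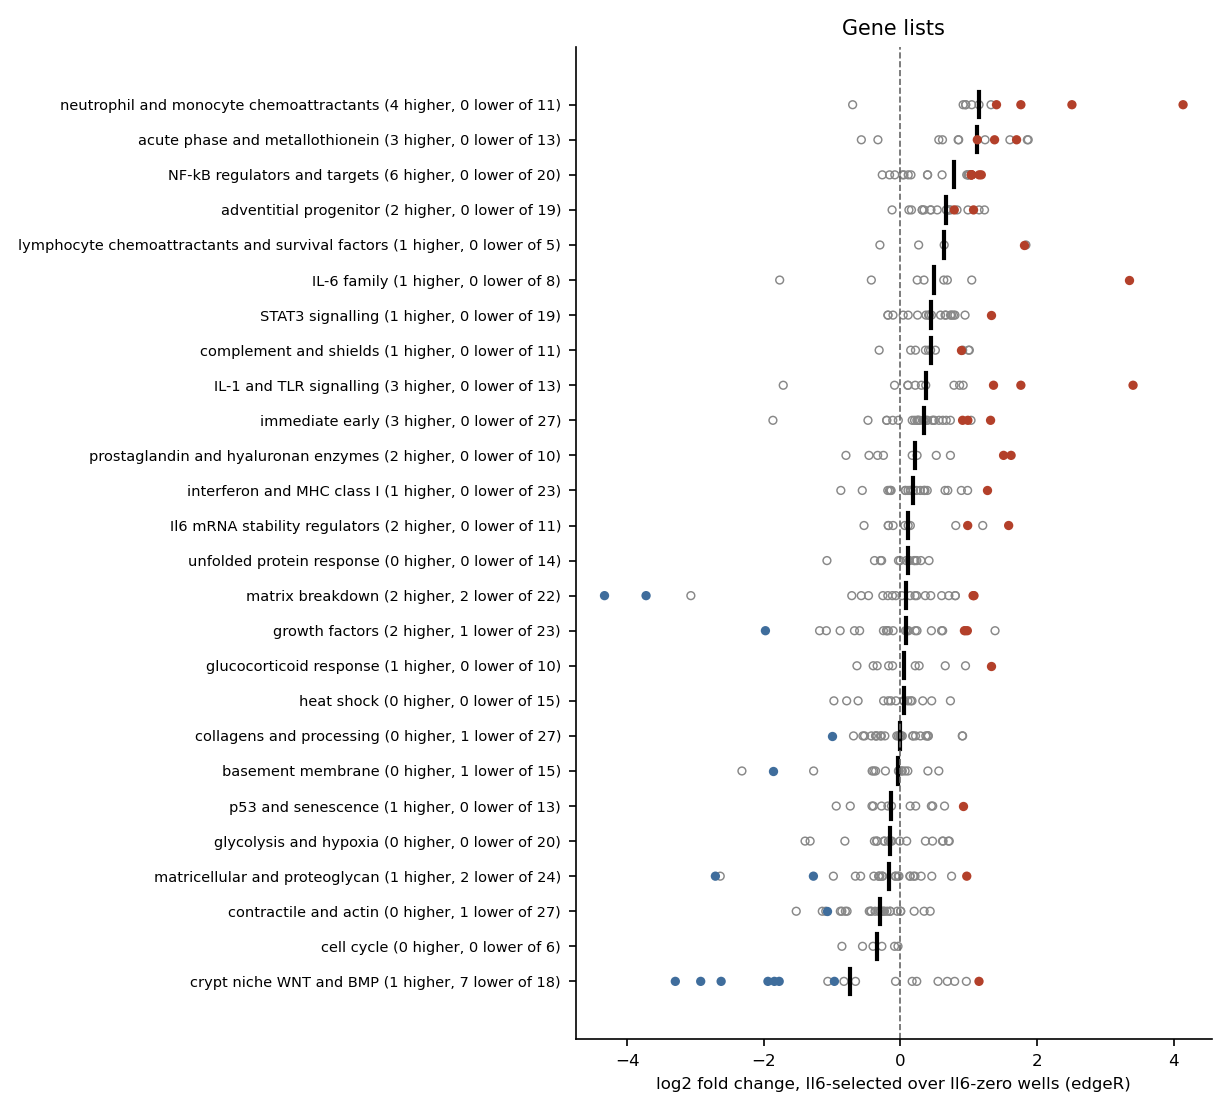
Log2 fold changes (horizontal axis) of the tested genes of 26 lists, 1 row per list in order of its median (black bar), with called genes filled (red higher, blue lower) and the others open; the dashed line is the median of all genes tested. The chemoattractant, acute phase and NF-kB lists stand at the top with medians of 1.15, 1.13 and 0.79, and the crypt niche list stands at the bottom with 7 of 18 genes lower.

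The crypt niche genes, the WNT and BMP signals by which fibroblasts around the colonic crypts steer the epithelium, were placed the other way. Of 18 tested genes 7 were lower in Il6-selected wells and 1 higher, with a median log2 fold change of -0.74. Among the 7, Bmp5, Bmp7, Wnt5a and Adamdec1 passed the low-count filter only with the Il6-zero side, where they were high. The count and the median were thus partly set by the filter. Bmp2, a ligand that drives differentiation of the surface epithelium, stood at 0.220, 0.374 and 0.160 per 10000 in the Il6-selected sums against 1.65, 2.40 and 0.973 (-2.62 ± 0.22, adjusted p = 0.000332). Bmp7 stood at 0.0532, 0.210 and 0.0133 against 0.725, 1.30 and 0.453 (-3.29 ± 0.37, adjusted p = 0.00154; -3.92 without tumour 3). Both ligands' sides were apart across the tumours. Bmp5 was lower (-1.94 ± 0.35, adjusted p = 0.0147), with the high Il6-selected level of tumour 3, 0.327, above the Il6-zero levels of 0.261 and 0.267 in tumours 2 and 4, and an adjusted p of 0.068 without tumour 3 and 0.061 without tumour 4.

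The WNT ligand genes Wnt5a and Wnt4 were lower too. Wnt5a, a ligand of the non-canonical pathway, stood at 0.357, 0.117 and 0.253 per 10000 against 0.915, 1.07 and 0.973 (-1.77 ± 0.28, adjusted p = 0.00849), with no overlap, and was found in 31.7%, 20% and 25.0% of the Il6-selected wells and 46.7%, 65.0% and 56.2% of the Il6-zero wells. Without tumour 4 its adjusted p was 0.052. Wnt4 stood at 0.167, 0.537 and 0.146 against 0.475, 2.84 and 0.560 (-1.84 ± 0.25, adjusted p = 0.00309; -1.58 and 0.071 without tumour 3). The Il6-selected level of tumour 3 lay above the Il6-zero level of tumour 2. Adamdec1, for a protease of the fibroblasts of the gut lining, stood at 0.121, 1.64 and 0.558 against 3.65, 14.2 and 1.44 (-2.92 ± 0.47, adjusted p = 0.00899); its log2 fold change was -2.15 without tumour 2 and -3.70 without tumour 4, and the call was lost without tumour 3 (adjusted p = 0.12). Dkk3 was the seventh (-0.97, adjusted p = 0.0404; 0.12 without tumour 3 and 0.24 without tumour 4), and Sfrp4, for a secreted WNT antagonist, was the 1 gene higher, at 10.1, 17.3 and 12.5 against 5.56, 5.79 and 7.96 (1.15 ± 0.21, adjusted p = 0.0164; 0.13 without tumour 3). Both are outside the rule for named genes and were named after their values were seen.

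The sums of the BMP ligands rested in part on single wells. Bmp2 was found in 25.0%, 45.0% and 34.4% of the Il6-zero wells and in 28.3%, 40.0% and 21.9% of the Il6-selected wells. Its share of wells was thus higher on the Il6-selected side in tumour 2 and lower in tumours 3 and 4, while its summed level was lower in all 3. The Il6-selected wells of tumour 2 were deeper, at a median total of 14272 against 11684 transcripts. The part of depth in this share was not tested. The highest well held 36.1%, 54.5% and 59.0% of the Bmp2 in each Il6-zero sum, and without the highest wells the levels were 1.08, 1.16 and 0.417 against 0.193, 0.269 and 0.0840. For Bmp7 they were 0.579, 1.01 and 0.246 against 0.0231, 0.0744 and 0. Over the 57 called genes that the rule named, the direction held in 3 of 3 tumours without the highest well of each sum for 54, and in 2 of 3 for Birc3, Ccl9 and Thbs4.

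Genes of matrix breakdown were called in both directions, 2 higher and 2 lower of 22. Mmp13, a collagenase whose window with its AP-1 letters is printed above, stood at 1.70, 0.467 and 0.505 per 10000 in the Il6-selected sums and at 31.5, 0.489 and 21.7 in the Il6-zero sums (-3.72 ± 0.72, adjusted p = 0.0190). The difference lay in tumours 2 and 4, while in tumour 3 the sides were at 0.467 and 0.489. Without tumour 3 the log2 fold change was -4.65, and without tumour 4 it was -2.81 with an adjusted p of 0.13. Transcripts of Mmp13 were found in 66.7%, 70.0% and 56.2% of the Il6-selected wells and in 55.0%, 55.0% and 75.0% of the Il6-zero wells, and the highest well held 28.6% and 46.1% of the Il6-zero sums of tumours 2 and 4. Mmp9, a gelatinase, was called (-4.33 ± 0.32, adjusted p = 0.000158) on 36 transcripts against 516, of which 1 well of tumour 2 held 420. The genes higher were Plat, for tissue plasminogen activator (1.08 ± 0.19, adjusted p = 0.0138; 0.12 without tumour 3), and the aggrecanase gene Adamts5 (1.06 ± 0.23, adjusted p = 0.0347; between 0.051 and 0.16 without any of tumours 2 to 4).

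Structural matrix genes changed in few members. Of 27 collagen and collagen-processing genes Col6a3, for a chain of beaded-filament collagen VI, was called lower, at 5.51, 7.68 and 6.83 per 10000 against 11.2, 18.2 and 15.03 (-1.005 ± 0.17, adjusted p = 0.0109; 0.094 without tumour 3). Col18a1 was the 1 of 15 basement membrane genes called, at 0.729, 0.887 and 1.25 against 2.20, 7.05 and 3.55 (-1.86 ± 0.27, adjusted p = 0.00451). Neither gene's sides overlapped, and the medians of the 2 lists were -0.004 and -0.03. Col1a1 and Dcn, which chose the wells, stood at 142, 81.1 and 128 against 135, 118 and 142 (Col1a1) and at 73.0, 140 and 117 against 85.4, 144 and 92.4 (Dcn). Of 24 matricellular and proteoglycan genes Tnc, for tenascin-C of wound stroma, was lower at 6.70, 1.47 and 2.11 against 13.4, 3.07 and 9.15 (-1.27 ± 0.24, adjusted p = 0.0171; 0.073 without tumour 3 and 0.064 without tumour 4). Thbs4 was lower (-2.71 ± 0.31, adjusted p = 0.00187; -3.37 without tumour 2), with its 17.0 transcripts of the Il6-zero side of tumour 3 in 1 well and 90.2% of those of tumour 4 in 1 well. Prelp was higher (0.97 ± 0.20, adjusted p = 0.0227; between 0.058 and 0.10 without any of tumours 2 to 4).

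**Figure D4:**
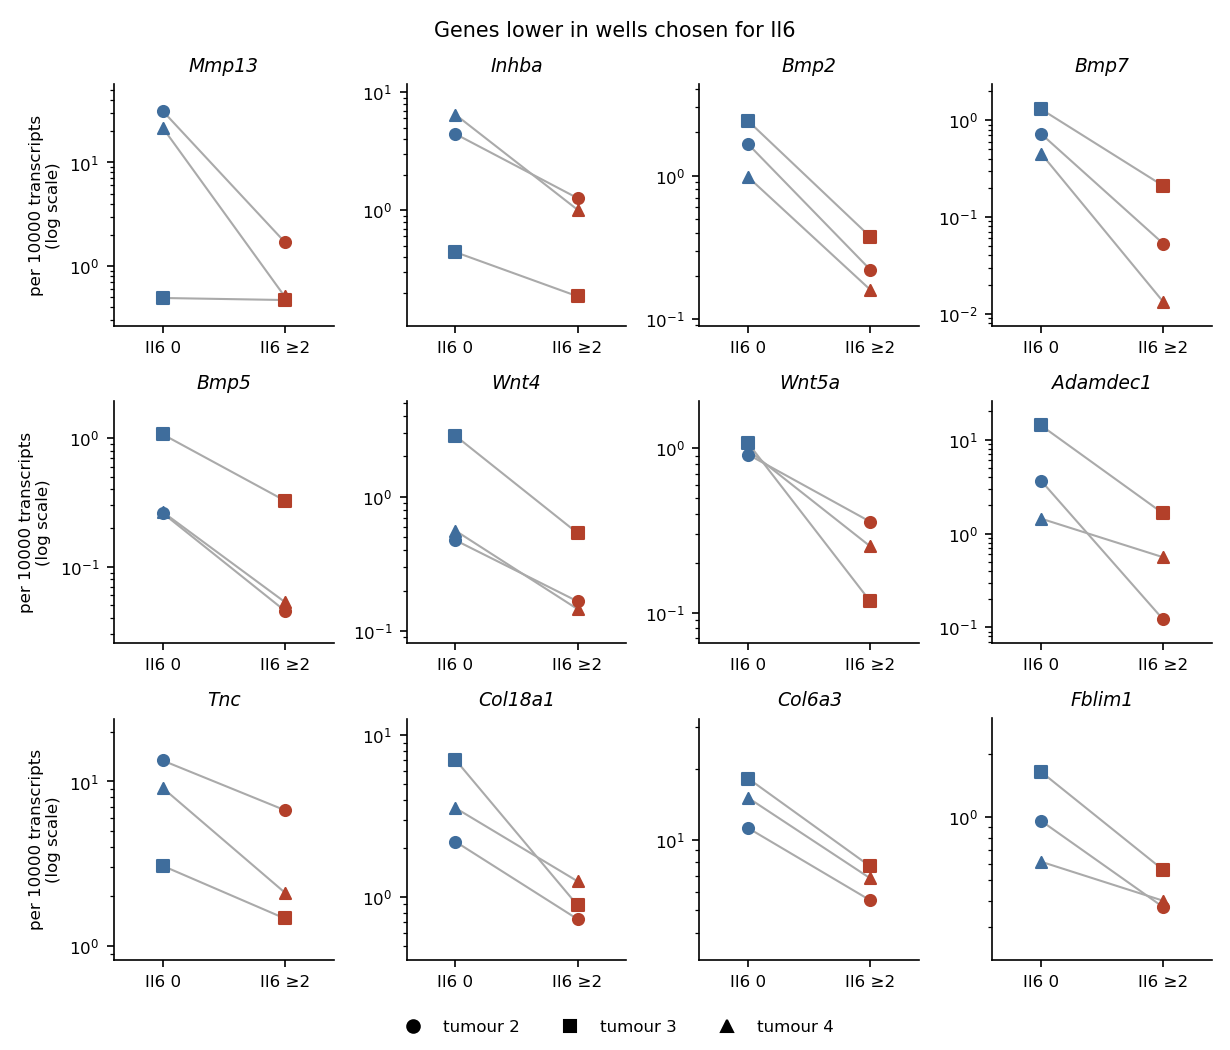
Levels of 12 genes lower in Il6-selected wells (transcripts per 10000, log scale), with each tumour's Il6-zero sum in blue joined to its Il6-selected sum in red. Bmp2, Bmp7 and Wnt5a are lower in each of the 3 tumours by several fold, while the line of Mmp13 in tumour 3 is nearly flat, from 0.489 to 0.467.

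Contractile and actin genes, the markers of matrix-making CAFs, had 22 of 27 log2 fold changes below 0 and a median of -0.29, but 1 call, Fblim1, for an adaptor of actin adhesions (-1.07 ± 0.23, adjusted p = 0.0349; 0.13 without tumour 2 and 0.24 without tumour 3). Smooth muscle markers that the rule had not used summed to 1.77, 2.36 and 1.98 per 10000 in the Il6-selected sums of tumours 2, 3 and 4 and to 2.04, 2.42 and 2.70 in the Il6-zero sums. This sum was lower in each tumour, like the pericyte sum above, but its members differed. Des was higher in tumours 3 and 4 (1.38 against 0.256 and 0.920 against 0.507), while Actg2 and Smtn were lower in each tumour. The part of either marker set in this list was not tested. Acta2, for smooth muscle actin, was not called and is named after its values were seen. It stood at 8.83, 1.26 and 1.88 per 10000 in the Il6-selected sums of tumours 2, 3 and 4 and at 9.55, 7.45 and 9.85 in the Il6-zero sums (-1.52 ± 0.39, adjusted p = 0.0759), so the sides were near each other in tumour 2 and apart in tumours 3 and 4. Growth factor genes went both ways, with 2 higher and 1 lower of 23. Inhba, for the activin A subunit, stood at 1.27, 0.187 and 1.01 against 4.43, 0.442 and 6.47 (-1.98 ± 0.26, adjusted p = 0.00309). The epithelial growth factor gene Fgf7 was higher, at 1.61, 1.99 and 2.39 against 1.13, 1.23 and 1.01 (0.94 ± 0.21, adjusted p = 0.0372), as was Tgfbr3, for betaglycan (0.98 ± 0.21, adjusted p = 0.0307). Without tumours 3 and 4 in turn the adjusted p was 0.18 and 0.22 for Fgf7 and 0.24 and 0.17 for Tgfbr3.

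Genes of adventitial progenitor fibroblasts, cells around vessels from which other fibroblasts can arise, had 18 of 19 log2 fold changes above 0, a median of 0.67 and 2 calls, both higher. Ly6a, for the stem cell antigen Sca-1, stood at 14.8, 15.8 and 22.1 per 10000 against 6.69, 11.2 and 9.76, with no overlap (1.07 ± 0.19, adjusted p = 0.0131; 0.055 without tumour 2 and 0.052 without tumour 4). Pdpn, for podoplanin, stood at 4.15, 5.30 and 6.28 against 2.90, 3.68 and 3.28 (0.79 ± 0.18, adjusted p = 0.0498) and missed the threshold when any of tumours 2, 3 and 4 was left out (adjusted p between 0.078 and 0.22). Igfbp4, an abundant gene of the senescence list that encodes a binder of insulin-like growth factors, was found in 100% of the wells of both sides and stood at 45.3, 65.0 and 52.7 against 27.6, 39.8 and 27.2 (0.92 ± 0.16, adjusted p = 0.0131; 0.057 without tumour 2 and 0.068 without tumour 3). The other 12 tested genes of that list were not called.

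Of the remaining genes with the largest decreases, Nrep, for a regulator of wound fibroblasts, stood at 0.190, 0.140 and 0.213 per 10000 against 0.867, 0.419 and 2.05 (-2.42 ± 0.30, adjusted p = 0.00264). The genes 9930013L23Rik (-3.73 ± 0.34, adjusted p = 0.000363) and 1810011O10Rik (-2.29 ± 0.28, adjusted p = 0.0024) are given by their identifiers in the files. The highest well held between 29.0% and 86.0% of the Il6-zero sums of 9930013L23Rik and between 25.3% and 45.2% of those of 1810011O10Rik. All 3 kept their call without any of tumours 2, 3 and 4.

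The wells were also split by their Il6 transcripts into classes of 0 (the matched wells), 1, 2 to 4, and 5 or more, of which the wells with 1 transcript had entered neither side of the test. Since the classes were cut on Il6, their levels are a description, and the classes differ in depth: the median total of the wells with 1 transcript was 13966, 7606 and 13452 in tumours 2, 3 and 4. Cxcl1 stood at 5.51 ± 1.58, 6.82 ± 1.01, 8.67 ± 2.90 and 15.6 ± 2.15 per 10000 in the 4 classes (SD, n = 3 tumours), and Ccl2 at 2.46 ± 1.96, 3.80 ± 1.89, 8.36 ± 1.08 and 12.6 ± 6.76. Lif stood at 0.286 ± 0.242, 0.851 ± 0.388, 1.07 ± 0.676 and 3.49 ± 2.54. For these 3 genes the mean was higher in each class than in the one before, and the spread of neighbouring classes overlapped except between 2 to 4 and 5 or more for Cxcl1 and between 1 and 2 to 4 for Ccl2. Cxcl1 rose at each step in each tumour, Ccl2 in tumours 2 and 4 and Lif in tumour 2 alone. In tumour 3 Lif stood at 0.0698, 1.26, 0.985 and 0.763, and Ccl2 went from 8.24 to 6.19 between the last classes. In tumour 4 Lif went from 0.493 at 1 transcript to 0.436 at 2 to 4. Bmp2 stood at 1.68 ± 0.715, 0.484 ± 0.238, 0.411 ± 0.467 and 0.162 ± 0.0844, so the wells with 1 transcript were already near the Il6-selected classes. Mmp13 stood at 17.9 ± 15.9, 1.05 ± 0.822, 1.55 ± 1.998 and 0.551 ± 0.101, and Wnt5a at 0.987 ± 0.0786, 0.748 ± 0.451, 0.389 ± 0.300 and 0.167 ± 0.0559.

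**Figure D5:**
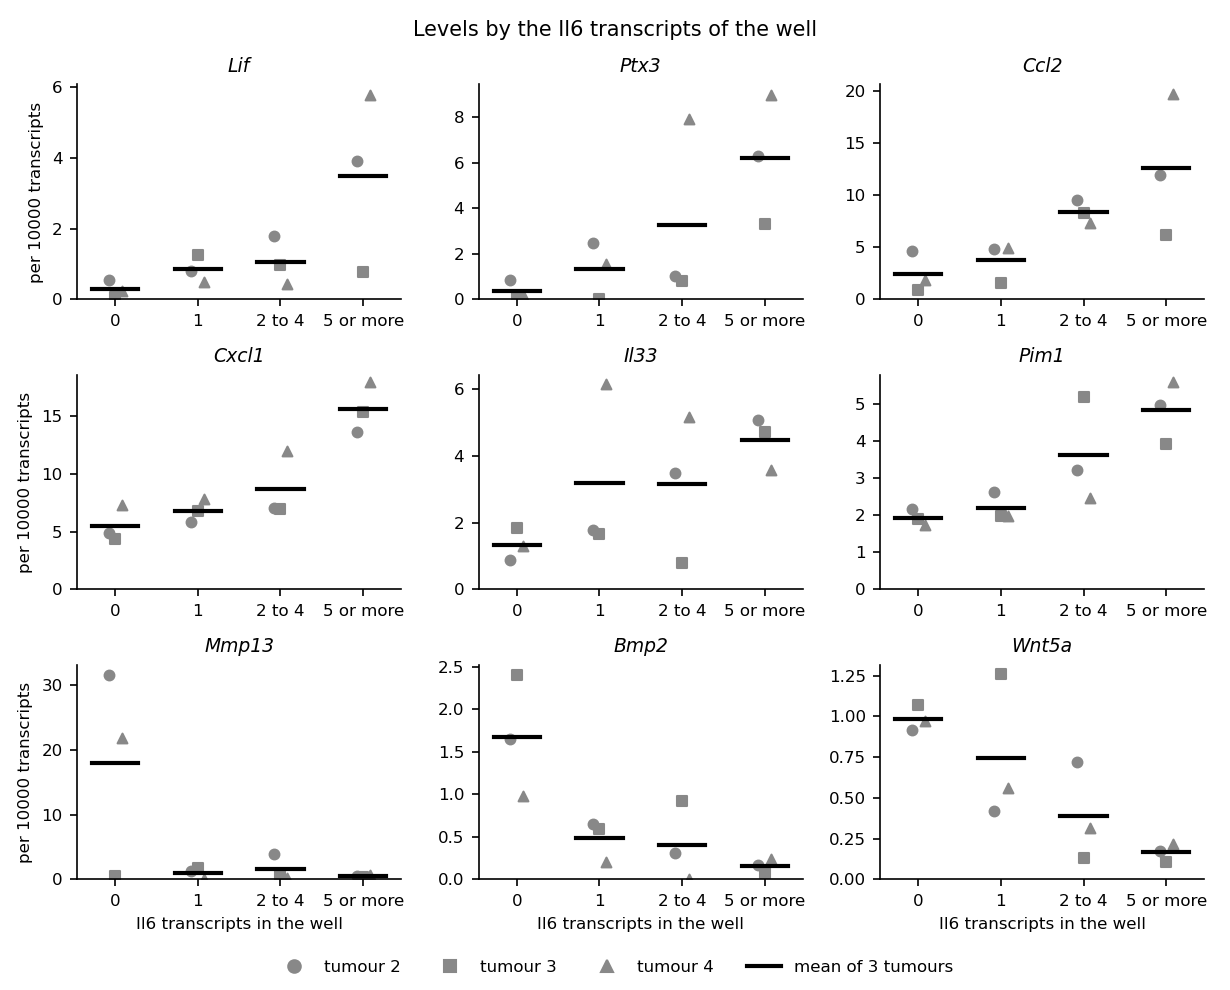
Mean level of 9 genes (vertical axis, transcripts per 10000) in wells with 0, 1, 2 to 4 and 5 or more Il6 transcripts, with a grey symbol for each of tumours 2, 3 and 4 and a black bar for their mean. Cxcl1 goes from 5.51 to 15.6 over the classes and Bmp2 from 1.68 to 0.162, with 1 tumour often apart from the others.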

How the data were processed

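Wells of 4 plates of sorted fibroblasts were analysed as deposited, 1 plate per tumour. The deposited tables give expected counts per gene and well: the authors' values are transcript numbers corrected for barcode saturation, as undoing the correction for 4096 possible barcodes returned whole numbers to within 0.00486. Reads were aligned with BWA to mm10, per the submitters' processing notes. For versions, counter and gene models nothing was given in these sources. The 4 tables use the same 384 well labels, so a shared label does not mark a shared cell. The files held 16305 genes besides spike-ins, and no doublet caller was run.

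The members, gene lists and tests were chosen with earlier results of these data known. Wells of each tumour were paired by optimal matching on log total. A tumour entered with at least 5 wells on each side. Expected counts were summed per tumour and side and rounded to whole numbers, giving sums of 428351 to 1317321 transcripts. edgeR 4.0.16 (R 4.3.3) was run with TMM factors, filterByExpr and tumour as a block, on 2 residual degrees of freedom. To these the quasi-likelihood fit adds a variance trend over all genes. The p-values were adjusted over all 7119 genes by the Benjamini-Hochberg method. Cells are not replicates: the test runs over 3 tumours. Both sides of a tumour come from 1 plate, which is the pairing. The deviations of the sides from their group means correlated at 0.292, 0.318 and 0.00832 within tumours 2, 3 and 4. Levels are transcripts per 10000 of the sum. The low-value filter means that genes too rare on both sides were not tested. Named genes were each tested member of the IL-6 family and STAT3 lists, up to 6 called members of each other list (or, with none called, its 2 most abundant), and the 10 largest differences each way among called genes at 1 or more per 10000 on the higher side and the same direction in each tumour; exceptions are stated, and some members of these lists are not reported here. Scripts were tested on simulated counts. Alternatives covered scaling, DESeq2 1.42.0, the filter, the block, left-out tumours, the Il6 threshold, the matching, depth, quality limits, marker-positive wells and Rn45s. Promoter windows came from the RefSeq table of GRCm38.p6, and gene positions from GENCODE M21 of GRCm38. Python 3.11.15 with scipy 1.17.1 did the rest.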

Additional observations from a re-analysis of the deposited data

Results flagged for a closer look

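Il6 was also found in wells that the fibroblast rule had left out. The 43 wells with at least 5 Myh11 transcripts per 10000 held Il6 at 0.828 per 10000, all of it in the 13 wells of tumour 2 (2.63 per 10000) and none in tumours 1, 3 and 4. Of the 43 wells 4 had at least 2 transcripts (9.30%, exact Clopper-Pearson 95% interval 2.59 to 22.1%). The 15 wells with at least 5 Rgs5 plus Notch3 transcripts per 10000 held 2.04 per 10000, with 3 wells at 2 or more, and 1 well of tumour 4 held 37.2 of their 45.2 Il6 transcripts. Both levels lay above the limit that a count of 0 allows, which is what drew attention to them. By contrast the 38 wells low in Dcn and Col1a1 and without these mural genes held no Il6 in 242302 transcripts, which allows up to 0.124 per 10000, and the 500 wells under 300 transcripts held 2 Il6 transcripts together.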

How the results depend on the processing

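The counts of called genes depended on the processing more than the directions did. Against 96 genes higher and 72 lower, DESeq2 called 52 and 34, no low-count filter gave 257 and 191, and without the replicate block, that is without pairing the sides of a tumour, 3 and 5 were called. Leaving out 1 tumour gave 35 to 116 higher and 32 to 72 lower. Taking all Il6-zero wells in the range of totals gave 260 and 256, up to 2 matched wells per Il6-selected well (2 in tumours 3 and 4, 1 in tumour 2) 175 and 154, matching also on immediate early and heat shock genes 214 and 169, matching also on the mitochondrial share 113 lower, and an Il6 minimum of 1 transcript 133 lower. The cause of these differences was not tested. With tumour totals in place of TMM 72 genes were higher and 108 lower. Other settings stayed within 1.5 times of both counts, or of the one not given here. Another 3 settings were chosen after seeing the data: pairs of wells within 1.25 times of each other in total (142 higher, 88 lower), tumour 1 added with 1 well a side (85 and 67) and wells with 2 or more immune, epithelial or endothelial transcripts left out (99 and 80). The planned setting that also left out wells with red cell transcripts could not be fitted, with 1 tumour left. Of the 57 called genes named by the rule, 46 could be fitted in all 26 settings and 11 in 19 to 25 of them. None reversed where fitted, and 42 were called in at least 20 of the settings. Leaving out tumour 1, and asking for at least 2 or at least 10 wells a side, gave the same sums as the main test. Those settings are counted among the 26, and their agreement was fixed in advance.

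The precision is limited by 3 tumours and 112 wells a side. Il6-zero means that no transcript was read at the depth of the well, and sums of rare genes rested in part on 1 well.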
